A study of Mus musculus with 24 samples.

Results

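The 10 genes described here encode receptors (Notch1, Notch2 and Notch3), ligands (Dll1, Dll4, Jag1 and Jag2), the DNA-binding factor that carries the signal (Rbpj) and transcriptional effectors (Hes1 and Hey1) of the Notch pathway. For each gene, Cdx2 binding was read from the peak lists as every consensus region with a peak summit in the gene body or within 20 kb to either side of it. The rule gave 14 sites, made of 58 peaks, out of 61454 consensus regions and 206283 peaks in the 12 lists. Of the 10 genes, 5 had a site and 5 had none. Hes1 held 6 of the sites, Notch2 held 4, Rbpj held 2, and Dll1 and Hey1 held 1 each. A site is named by its gene and the distance in kb of its median summit from the start site of the gene, with a minus sign for upstream positions.

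Cdx2, the homeobox factor that specifies intestinal epithelium, was mapped by ChIPmentation, a form of ChIP-seq in which the sequencing adapters are inserted by a transposase, in mouse colon organoids. Proximal and distal colon organoids were grown either in WENR-plus medium, which holds Wnt3a, EGF, Noggin and R-spondin, or for 3 days in the same medium without these factors (WENR-minus). The sites and media made 4 groups of 3 libraries, and the study asked how Cdx2 binding differs with the site of origin and the medium. All organoids came from young adult female mice that carried 1 Cre-inducible BRAFV600E allele and 1 tdTomato reporter allele, with no Cre treatment named in the labels. Organoids are cultures of epithelial cells, without the stroma and vessels of the colon. The study derived the organoids from 3 mice, so the 12 libraries are not 12 independent animals, and the labels do not say whether libraries of the same number came from the same mouse.

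Notch signalling passes between touching cells. A Delta-like or Jagged ligand on one cell binds a Notch receptor on the next, the receptor is cut, and its inner part moves to the nucleus, where it joins Rbpj and a Mastermind-like protein to switch on genes of the Hes and Hey families. In the intestinal crypt, Hes1 represses Atoh1 and so holds progenitors on the absorptive path, while cells that escape the signal become goblet and other secretory cells. Notch1 and Notch2 are the receptors of crypt cells, and Dll1 and Dll4 are their main ligands there.

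The 12 lists held between 5608 and 42192 peaks on chromosomes 1 to 19, X and Y, with a median fold enrichment over input between 5.02 and 6.57. The 6 proximal lists held 11409 to 42192 peaks and the 6 distal lists 5608 to 21040. The lists give no read totals. The library depths and shares of reads in peaks stated in the study's supplement were not used here. By that supplement, the shares of reads in peaks tended to be lower in the distal libraries, with overlapping ranges. The share of distal WENR-plus replicate 1 was among the lowest. A missing peak means only that no peak passed the authors' q-value limit of 0.01 in that library. Between 1 and 13 of the 14 sites were called in a library. The smallest number was in distal WENR-plus replicate 1, with 7378 peaks, and the largest in proximal WENR-plus replicate 2, with the longest list. Of the 14 sites, 13 had a peak in proximal WENR-plus replicate 1 or 2.

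The sequences below are the genome reference (mm10, plus strand) around the median summits of the sites on which the results turn: the site called in most libraries at Hes1, Notch2, Dll1 and Hey1, and, chosen after their values were seen, the other Hes1 sites called in 5 libraries and the one at its start site. Capitals mark a Cdx2 word, which is TTTAT followed by GA, by GG, by TA or by TG, on either strand.
Hes1 -8.7 kb (chr16:30055495-30055794): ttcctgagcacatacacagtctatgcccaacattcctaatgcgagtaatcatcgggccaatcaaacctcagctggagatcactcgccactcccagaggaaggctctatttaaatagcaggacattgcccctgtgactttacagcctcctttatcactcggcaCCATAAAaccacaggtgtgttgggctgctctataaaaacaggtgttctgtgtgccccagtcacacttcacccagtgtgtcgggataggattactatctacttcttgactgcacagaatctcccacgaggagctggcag
Notch2 +30.5 kb (chr3:98043911-98044111): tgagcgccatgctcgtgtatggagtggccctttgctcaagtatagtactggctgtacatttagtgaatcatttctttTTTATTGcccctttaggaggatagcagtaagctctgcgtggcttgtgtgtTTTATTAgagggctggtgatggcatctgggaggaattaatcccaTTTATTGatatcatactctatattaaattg
Dll1 +20.1 kb (chr17:15356690-15356790): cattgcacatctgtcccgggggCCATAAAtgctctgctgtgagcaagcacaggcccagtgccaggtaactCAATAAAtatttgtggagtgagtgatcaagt
Hes1 -11.1 kb (chr16:30053283-30053383): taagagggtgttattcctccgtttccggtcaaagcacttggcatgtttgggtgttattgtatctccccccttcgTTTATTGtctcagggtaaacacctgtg
Hes1 -0.1 kb (chr16:30064270-30064370): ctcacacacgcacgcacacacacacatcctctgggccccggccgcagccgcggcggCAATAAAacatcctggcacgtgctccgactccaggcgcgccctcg
Hes1 +0.7 kb (chr16:30065005-30065105): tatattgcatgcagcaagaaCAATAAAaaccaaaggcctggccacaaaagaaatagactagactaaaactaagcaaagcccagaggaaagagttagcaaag
Hey1 -5.2 kb (chr3:8672429-8672529): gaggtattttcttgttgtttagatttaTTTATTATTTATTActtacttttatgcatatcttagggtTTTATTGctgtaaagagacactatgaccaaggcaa

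A Cdx2 word lay within 50 bp of the median summit at 10 of the 14 sites, a share of 71.4%. The same share was 60.4% over all regions and 73.2% over the 2079 regions called in all 12 libraries. In windows of the same length placed 1000 bp away, it was 7.14% for the sites and 11.7% for all regions. The 4 sites without a word in this window were Notch2 +8.6 kb, Notch2 +46.8 kb, Hes1 +11.4 kb and Rbpj +192.1 kb. At Hes1 -8.7 kb the window of 300 bases held a single word, TTTATGG on the minus strand, centred 16 bp from the median summit. That word lay within 50 bp of the library's own summit in 7 of 12 libraries. Notch2 +30.5 kb held 3 words in 201 bases. The tandem pair at Hey1 -5.2 kb is 2 copies of TTTATTA end to end, followed by a TTTATTG. The word GTGGGAA, the core of the site that Rbpj reads, was searched on both strands in the windows within 50 bp. It was found at 0 of 14 sites, against 1.16% of all regions, a share too low for 14 sites to show a lack. Over the full length of the sites it occurred 1 time each at Hes1 -8.7 kb and Hes1 +0.7 kb, outside these windows. The median GC content within 50 bp of the summit was 42.6% for the sites and 34.7% for all regions, with the highest value, 68.3%, at Hes1 -0.1 kb next to the start site.

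**Figure D1:**
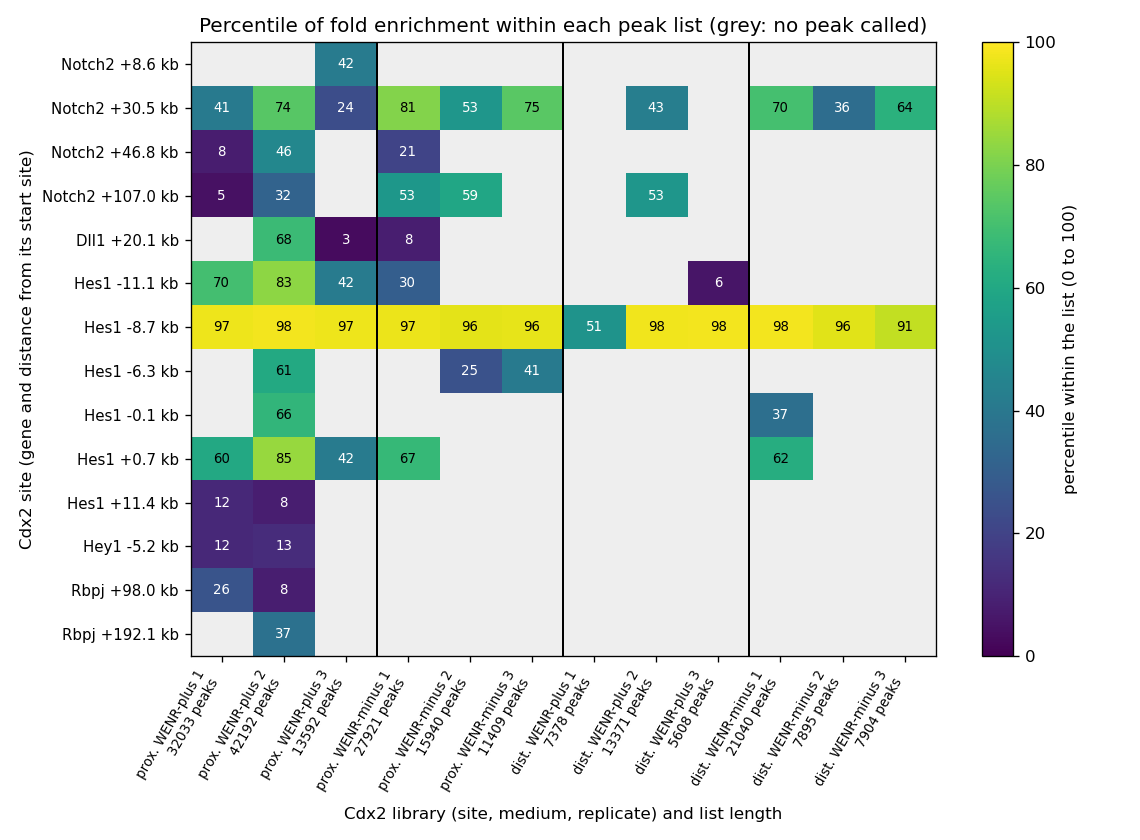
Rows are the 14 Cdx2 sites of the Notch genes and columns the 12 libraries with the length of each peak list. Each coloured cell gives the percentile of the site's fold enrichment within the list of that library, from 0 to 100, and grey cells mark no called peak. Hes1 -8.7 kb fills its whole row, Notch2 +30.5 kb has 10 of 12 cells, and the other rows have at most 5.

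Among the receptors, Cdx2 peaks were found at Notch2 and at neither Notch1 nor Notch3. All 4 Notch2 sites lay in introns of the gene, which spans chr3:98013527-98150361. The site called in most libraries, Notch2 +30.5 kb (chr3:98043707-98044444), had a peak in 10 of 12 libraries, namely in all 6 proximal libraries, in all 3 distal WENR-minus libraries and in distal WENR-plus replicate 2. The summits of these 10 peaks fell within 107 bp, and each had a Cdx2 word within 50 bp.

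The fold enrichment over input at Notch2 +30.5 kb was 4.83, 6.58 and 5.09 in proximal WENR-plus replicates 1, 2 and 3. Without the factors, the proximal values were 7.52, 6.01 and 8.15. In the distal organoids the only value with the factors was 5.77, in replicate 2, and those without them were 6.28, 5.47 and 6.64. The values of the media overlapped, and the mean was 5.50 ± 0.95 (SD, n = 3) in proximal WENR-plus and 7.23 ± 1.10 (SD, n = 3) in proximal WENR-minus. Within the lists the site stood at a median percentile of 58.3, with a range of 23.7 to 81.3.

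Presence of Notch2 +30.5 kb was compared by Fisher's exact test, two-sided, with Benjamini-Hochberg adjustment. It was 6 of 6 proximal against 4 of 6 distal libraries (Fisher's exact test, p = 0.455, adjusted p = 0.889). By medium it was 4 of 6 WENR-plus against 6 of 6 WENR-minus libraries (Fisher's exact test, p = 0.455, adjusted p = 1.0). An exact p of 0.455 is the smallest that presence in 10 libraries allows, so these 2 tests show nothing on a difference. Every list was then reduced to its 5608 strongest peaks by −log10 p. The site was kept in 5 of 6 WENR-minus libraries and in 0 of 6 WENR-plus libraries. The exact p of that split was 0.0152 before adjustment and 1.0 after it over 10358 regions, of which 0.56% reached an unadjusted p of 0.05. The split depends on the ranking used. The peak of Notch2 +30.5 kb in distal WENR-minus replicate 1, kept by −log10 p, ranked 6207 by fold enrichment, outside such a cut. The other 3 Notch2 sites were called in 1, 3 and 5 libraries, with median percentiles of 41.7, 20.6 and 52.6. The weakest of the 4 by libraries, Notch2 +8.6 kb, was called in proximal WENR-plus replicate 3 alone.

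**Figure D2:**
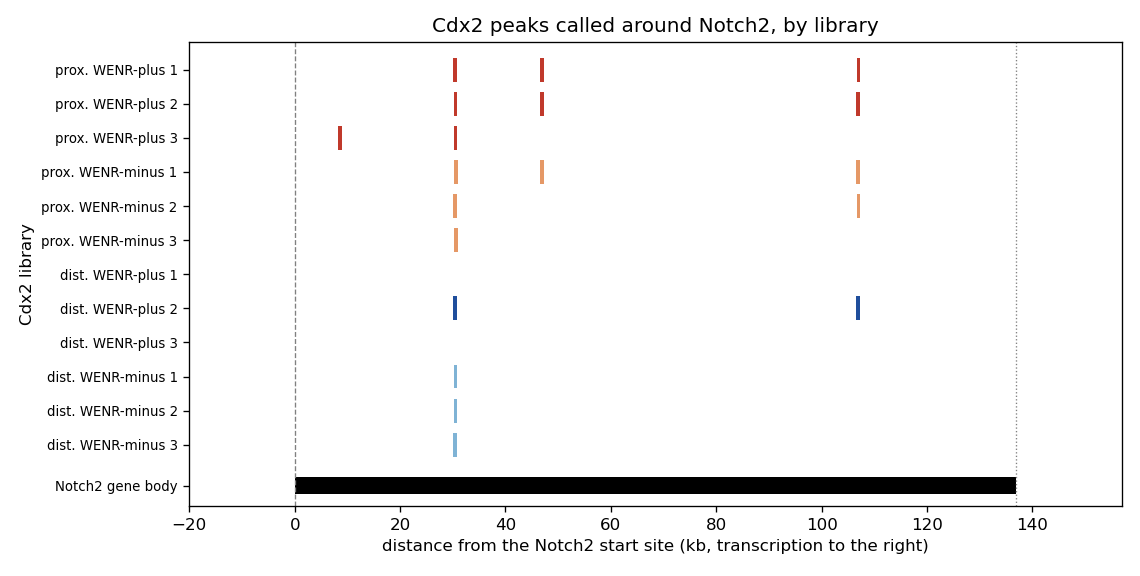
Bars mark the Cdx2 peaks called in each of the 12 libraries (rows) along the Notch2 gene, by distance from its start site in kb, with the gene body in black and bars drawn at a least width so that they can be seen. The column of bars at 30.5 kb runs through 10 libraries and is missing from distal WENR-plus replicates 1 and 3.

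Notch1 and Notch3 had no peak summit within 20 kb in any list. The nearest consensus region lay 78.2 kb upstream of Notch1 and was called in 1 library, and the nearest to Notch3 lay 68.6 kb upstream and was called in 3. Of the crypt receptors, Notch2 carried Cdx2 peaks in its own body and Notch1 had none called. The Notch2 window of 176.8 kb held 4 sites, or 2.26 regions per 100 kb, against 2.25 over the chromosomes. The number of Notch2 sites was thus near the general density.

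Of the ligands, Dll1 alone had a site. Dll1 +20.1 kb (chr17:15356554-15356921) lay 10.6 kb beyond the 3′ end of the gene and was called in 3 proximal libraries and 0 distal ones. Its fold enrichment was 6.13 in proximal WENR-plus replicate 2, 3.90 in proximal WENR-plus replicate 3 and 3.67 in proximal WENR-minus replicate 1. These stood at the percentiles 68.3, 2.97 and 8.37 of their lists, so 1 peak was of upper rank and the others were near the bottom. The 3 summits fell within 15 bp and lay between a pair of Cdx2 words. The split by colon site had an exact p of 0.182 (adjusted p = 0.810), the smallest that presence in 3 libraries allows.

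Dll4, Jag1 and Jag2 had no summit within 20 kb. The gap from the gene body to the nearest region was 63.0 kb at Dll4, 30.4 kb at Jag1 and 107.6 kb at Jag2. Jag1, a ligand that is also made in the crypt, had 5 regions within 50 kb, and Dll4 and Jag2 had 0.

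Hes1, the effector that represses Atoh1, had the highest and most widely shared Cdx2 peak of the 10 genes. The gene spans chr16:30064384-30067796 on the plus strand. Hes1 -8.7 kb (chr16:30055313-30056713), upstream of it, had the highest fold enrichment of the 14 sites in every library and was the only one of the 14 sites with a peak in all 12 libraries, which 3.38% of all regions had. The next protein-coding gene, Cpn2, started 211.9 kb away from it. The 12 summits fell within 156 bp, and in 2 libraries, proximal WENR-minus replicate 2 and distal WENR-minus replicate 2, the region was called as 2 peaks.

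The fold enrichment at Hes1 -8.7 kb was 15.5, 19.4 and 20.7 in proximal WENR-plus replicates 1, 2 and 3. Without the factors, the proximal values were 16.4, 14.9 and 17.4. The distal values were 6.49, 16.4 and 17.5 in WENR-plus and 15.2, 11.8 and 10.7 in WENR-minus. Distal WENR-plus replicate 1 stood apart with the lowest value. The distal WENR-minus values lay below all those of proximal WENR-plus and overlapped those of proximal WENR-minus. The −log10 q of the site ran from 11.7 in that library to 61.0 in proximal WENR-plus replicate 2.

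Within its list, Hes1 -8.7 kb stood at a median percentile of 97.3. In 10 of the 12 libraries it was above the 95th percentile, and it was at 90.6 in distal WENR-minus replicate 3 and at 51.3 in distal WENR-plus replicate 1. Of the 21938 protein-coding genes of the annotation, 7.72% had a region within 20 kb that was called in all 12 libraries, and 1.18% had one with a median percentile as high as that of Hes1 or higher. Among the 2079 regions called in all libraries, it ranked between 90 and 1547 from the top.

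**Figure D3:**
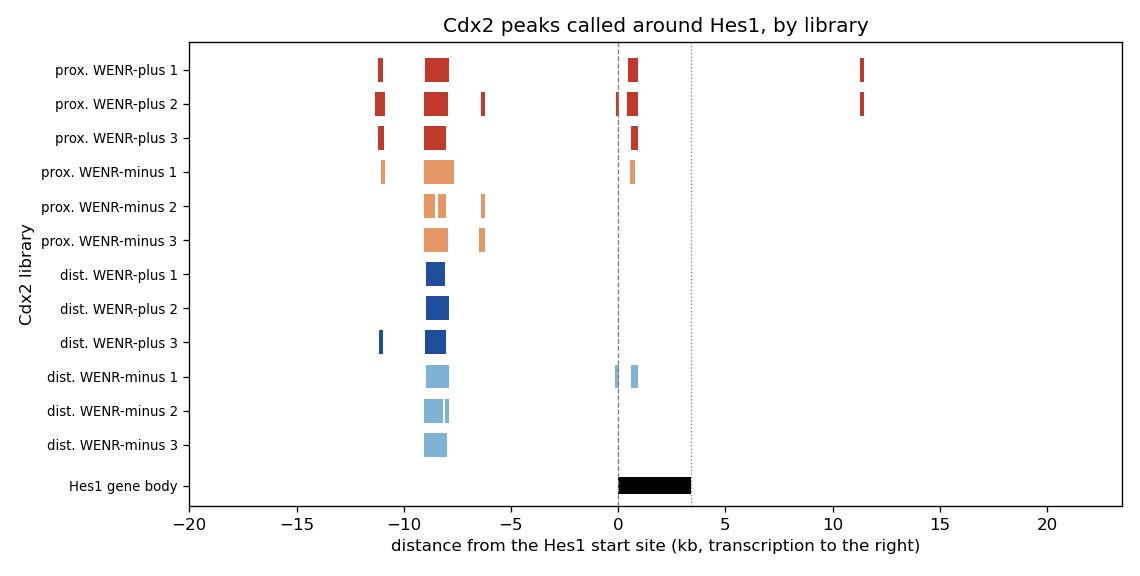
Bars mark the Cdx2 peaks called in each of the 12 libraries (rows) around Hes1, by distance from its start site in kb, with the gene body in black. The bars near -8.7 kb are present in all 12 libraries, while those at -11.1 and +0.7 kb are present in 5 libraries each.

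The other 5 Hes1 sites were weaker. Hes1 -11.1 kb and Hes1 +0.7 kb were each called in 5 libraries, 4 proximal and 1 distal, Hes1 -6.3 kb in 3, and Hes1 -0.1 kb and Hes1 +11.4 kb in 2. Of the 14 sites, 2 (14.3%, 95% interval 1.78% to 42.8%) lay within 3 kb of a start site of their gene, and both were at Hes1. The same share over all regions is not given here, so this count is not read as high or low. Hes1 -0.1 kb had its median summit at -64 bp and a fold enrichment of 5.96 in proximal WENR-plus replicate 2 and 4.84 in distal WENR-minus replicate 1. Hes1 +0.7 kb lay in an intron, 285 bp from the start of another annotated Hes1 transcript.

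At Hes1 +0.7 kb the fold enrichment was 5.70, 8.15 and 5.87 in proximal WENR-plus replicates 1, 2 and 3, 5.91 in proximal WENR-minus replicate 1 and 5.81 in distal WENR-minus replicate 1. The 5 libraries with this peak included the 4 longest lists. With 6 regions in a window of 43.4 kb, Hes1 had 13.8 regions per 100 kb, against 1.53 over the windows of all 10 genes and 2.25 over the chromosomes. As many regions as at Hes1, or more, were found near 8.5% of protein-coding genes.

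Hey1, a Hes-related repressor, had a single site. Hey1 -5.2 kb (chr3:8672388-8672541) was called in proximal WENR-plus replicates 1 and 2, with fold enrichments of 4.06 in both and percentiles of 11.6 and 12.7. These are the longest lists, and the peak was near the bottom of each.

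Rbpj, the DNA-binding partner of the cut receptor, had 2 sites in or beside its gene body of 191.2 kb. Rbpj +98.0 kb (chr5:53564055-53564317) was intronic, 8360 bp from the start of another annotated Rbpj transcript. Its fold enrichment was 4.44 in proximal WENR-plus replicate 1 and 3.76 in replicate 2, at percentiles of 26.1 and 8.42, and its summits in the 2 lists were 213 bp apart. Rbpj +192.1 kb, just past the 3′ end, was called in proximal WENR-plus replicate 2 alone. Rbpj had 0.865 regions per 100 kb.

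Taking the 14 sites by colon site, 12 were called in more proximal than distal libraries, 0 in more distal than proximal ones, and 8 in no distal library. Over all regions, 80.6% were called in more proximal than distal libraries, 9.08% in more distal ones and 56.4% in no distal library. Of the 14 sites, 2 were called in 1 library only, as were 42.2% of all regions. No Notch site had a peak in all 6 proximal libraries together with 0 distal ones, a pattern that 1.04% of all regions had. By medium, 10 sites were called in more WENR-plus than WENR-minus libraries, 2 in more WENR-minus ones (Notch2 +30.5 kb and Hes1 -6.3 kb), and 53.3% of all regions were called in more WENR-plus libraries.

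Fisher's exact test, two-sided, was run on presence in 6 libraries against 6 for the 35518 regions called in at least 2 libraries, 12 of them Notch sites. By colon site, 0 of the 12 reached an unadjusted p of 0.05, and the lowest exact p, 0.182, was that of Notch2 +46.8 kb, Dll1 +20.1 kb and Hes1 -6.3 kb. Over all regions tested, 5.24% reached an unadjusted p of 0.05 by colon site and 0.189% by medium. After Benjamini-Hochberg adjustment 0.0% of the regions remained in either test, with the lowest adjusted p at 0.114 and 1.0. By medium, too, 0 of the 12 Notch sites reached an unadjusted p of 0.05, with a lowest exact p of 0.242 at Hes1 -11.1 kb. In both tests only the 3 sites called in 5 libraries could have reached it. With 6 libraries against 6, presence in 2, 3, 10 or 12 libraries cannot, however it is split. For the other sites tested the outcome was therefore fixed by the number of libraries and shows nothing on a difference. The media of 1 site and replicate number may share an organoid line. In that case the p-values by colon site are too small, and the test by medium ignores a pairing.

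Lists cut to their 5608 strongest peaks by −log10 p left 3 of the 14 sites (21.4%), against 24.7% of all regions. Hes1 -8.7 kb was still called in all 12 libraries and Notch2 +30.5 kb in 2 proximal and 3 distal libraries. Hes1 -11.1 kb was called in 1 distal library, WENR-plus replicate 3. That list held 5608 peaks and was not shortened, and the peak stood at percentile 5.71 of it. The proximal peaks of Hes1 -11.1 kb, at percentiles of 29.7 to 83.0, were all cut. The other 11 sites were called in 0 libraries. At equal length 37.2% of all regions were called in more proximal and 43.2% in more distal libraries. The cut gives every library the same number of peaks, which largely fixes the balance of proximal and distal calls in advance. The source of the proximal leaning of the deposited lists was not tested. At a −log10 q of at least 5, Hes1 -8.7 kb stayed in all 12 libraries and Notch2 +30.5 kb in 9.

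To compare the height of Hes1 -8.7 kb between groups, the fold enrichment was turned into a normal score of its rank among the 2079 regions called in all 12 libraries, which removes the scale of each library. In WENR-plus the mean score was 0.74 ± 0.29 for proximal and 0.73 ± 1.23 for distal organoids (SD, n = 3 each). In WENR-minus it was 0.77 ± 0.24 for proximal and 0.84 ± 0.32 for distal organoids. Proximal minus distal, averaged over the media, was -0.03 (SE 0.34, 95% interval -0.76 to 0.69) with a limma adjusted p of 0.977. WENR-minus minus WENR-plus, averaged over the sites, was 0.07 (SE 0.34, 95% interval -0.66 to 0.79) with a limma adjusted p of 0.969.

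Hes1 -8.7 kb passed none of the 7 limma contrasts. In WENR-plus the proximal minus distal score was 0.01 (95% interval -1.02 to 1.03) and in WENR-minus -0.07 (-1.10 to 0.95). The change on withdrawing the factors was 0.03 in proximal and 0.11 in distal organoids, and the 2 changes differed by -0.08 (-1.53 to 1.37). The intervals are wide, and each covers shifts of more than 0.6 of the spread of the scores (1 SD over the regions) in either direction. Without distal WENR-plus replicate 1, the proximal minus distal score in WENR-plus was -0.69 (limma adjusted p = 0.310).

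Over all 2079 regions, the share called by limma at an adjusted p of 0.05 was 10.6% for proximal minus distal averaged over the media, 3.17% in WENR-plus and 1.15% in WENR-minus. It was 0.481% for the medium averaged over the sites, 0.0% for the medium in proximal organoids and 1.11% in distal organoids, and 0.0% for the contrast of the proximal and the distal change. In the contrasts with 0 called regions, 121 regions for the medium in proximal organoids and 96 for the difference had an unadjusted p under 0.05.

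On the linear scale of the deposited fold enrichment, which keeps the scale of each library, Hes1 -8.7 kb had a mean of 17.4 ± 2.30 in the 6 proximal libraries and 13.0 ± 4.14 in the 6 distal ones (SD). The difference of 4.37 had a two-sided exact permutation p of 0.0519, or 0.104 after adjustment over this comparison and the one by medium. By medium, the mean was 14.4 ± 2.61 in WENR-minus and 16.0 ± 5.05 in WENR-plus (SD, n = 6 each, exact permutation p = 0.502). The proximal value was higher in 6 of the 6 pairs of the same number and medium, as was the case for 33.4% of the 2079 regions called in all libraries. These tests treat libraries that share mice as independent. The higher linear fold in proximal organoids was not seen in the rank among shared regions, where the proximal and distal scores were 0.03 apart in the other direction.

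**Figure D4:**
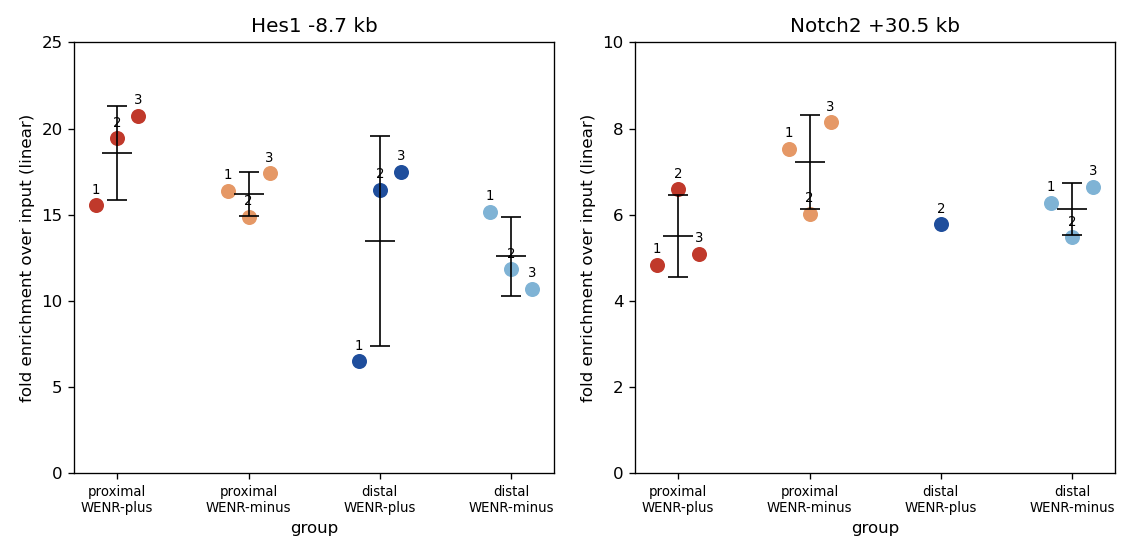
Points give the linear fold enrichment over input at Hes1 -8.7 kb (left) and Notch2 +30.5 kb (right) in each library with a called peak, marked by replicate number, with the mean and SD as black bars where all 3 libraries of a group had a peak. The Hes1 values lie between 10.7 and 20.7 except for 6.49 in distal WENR-plus replicate 1, and the Notch2 values lie between 4.83 and 8.15.

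The 3 regions whose scores followed Hes1 -8.7 kb most closely over the 12 libraries were nearest to the start sites of Klf5 (chr14:99280444-99281753, Pearson's r = 0.85), Dock8 (chr19:25162196-25162843, r = 0.84) and Lamtor3 (chr3:137932649-137933771, r = 0.84). They lay 17.6, 6.7 and 7.0 kb from those start sites. The 12 points share the libraries and their scaling, and the 3 were the highest of 2078 correlations, so the values describe likeness only.

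Of 46 other genes of the Notch pathway, 31 (67.4%) had a region within 20 kb in any library, against 66.4% of protein-coding genes and 5 of the 10 genes above (50%). A region called in at least 6 libraries was found at 14 of the 46 (30.4%), against 29.2% of protein-coding genes and 2 of the 10. In all 12 libraries, it was 4 of the 46 (8.7%) and 1 of the 10. Each count of the 46 genes was near that of all protein-coding genes.

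Among the genes with a region in all 12 libraries were Hes2, a relative of Hes1, Aph1b, a subunit of the enzyme that cuts the receptor, and Maml3, a Mastermind-like coactivator. The median percentiles of these regions were 95.7, 84.8 and 93.7. By role, 7 of 10 further family members, 7 of 10 genes of receptor processing, 2 of 5 genes of receptor glycosylation, 9 of 12 genes of ligand endocytosis and receptor turnover and 5 of 6 nuclear cofactors had a region in any library. Among the secretory fate genes that Hes1 or Notch output holds down, 1 of 3 had one. That was Atoh1, whose best region was called in 2 proximal libraries at a median percentile of 5.27.

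**Figure D5:**
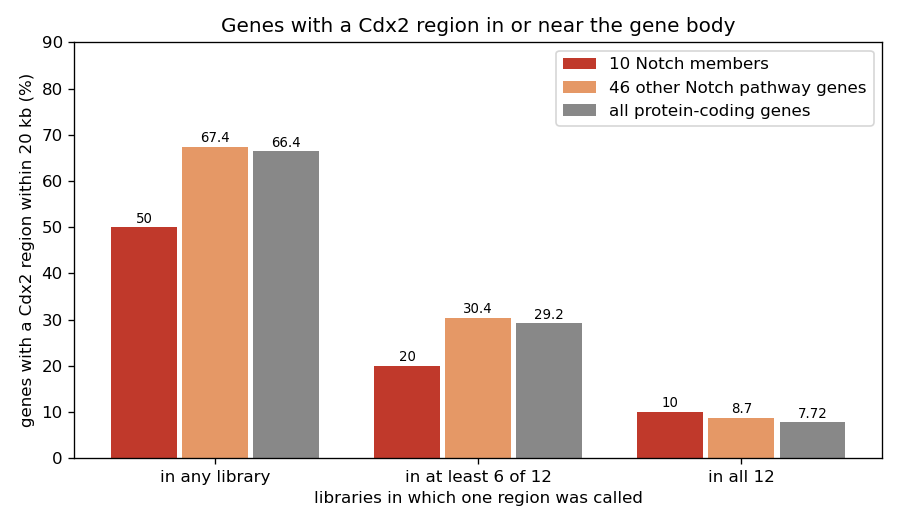
Bars give the percent of genes with a Cdx2 region in or within 20 kb of the gene body, called in any library, in at least 6 libraries or in all 12, for the 10 Notch genes, 46 other Notch pathway genes and all protein-coding genes. The 10 genes stand at 50%, 20% and 10%, and the 46 pathway genes stay within 2 points of all protein-coding genes.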

How the data were processed

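Per the submitters' processing notes, the authors used Trimmomatic 0.39 for trimming, Bowtie2 2.4.5 for alignment to mm10, SAMtools 1.13 to drop duplicates and MACS2 2.2.7.1 to call the peaks of each library over its own input (q-value limit 0.01), so peak height depends on the depth and the input of each library. The study's supplement names other releases of Bowtie2, SAMtools and MACS2. The 12 input libraries were not analysed here. Each deposited list gives the authors' score (10 times the −log10 q-value, truncated), the fold enrichment (a ratio of pileup to local background at the summit), the −log10 p and −log10 q of the summit, and the summit offset.

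Overlapping peaks (1 bp or more) from all 12 lists were joined into consensus regions, with the highest peak of a library taken per region. Genes came from GENCODE vM21 and sequence from GRCm38, the assembly of mm10. Percentiles are ranks of the fold enrichment within a list. Presence was tested by Fisher's exact test and scores by limma 3.58.1 in R 4.3.3, fitted over all regions as 4 group means, with Benjamini-Hochberg adjustment. Both were tested on simulated data. The sites described one by one were the site in most libraries of each gene and every site in at least 8 libraries, and Rbpj +192.1 kb and the other Notch2 and Hes1 sites were named after their values were seen. The read-count comparison of the study was not used, since the lists hold no counts. The members, gene lists and tests were chosen with earlier results of these data known, and the permutation tests of the linear fold were added after seeing the data. Replicates are organoid cultures from 3 mice per the study, and p-values measure the spread between these libraries.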

Additional observations from a re-analysis of the deposited data

How the results depend on the processing

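Hes1 -8.7 kb was called in all 12 libraries with lists of equal length, at a −log10 q of at least 5, with summits within 250 bp and in a window of 50 kb, and passed limma's test in 0 of 112 refits. With a window of 5 kb there were 8 sites and 0 in all 12 libraries, since Hes1 -8.7 kb lies outside it, and with 50 kb there were 25 sites. Lists of equal length left 3 sites, with 1 at an unadjusted Fisher p under 0.05 by medium. The number of sites was 13 to 14 when each library was left out in turn. The share with a Cdx2 word was 78.6% within 100 bp.

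Counts of regions called by limma moved more. With the log2 fold centred on its median they were 352 for colon site (220 as reported), 16 for medium (10), 129 and 62 for proximal minus distal in WENR-plus and WENR-minus (66 and 24), and 0 for medium in distal organoids (23). With lists of equal length, which have fewer regions to test, they were 119, 4, 38, 9 and 12, and a −log10 q of at least 5 gave 5 for medium. Leaving out each library in turn gave 137 to 211 for colon site, 2 to 15 for medium, 1 to 66 and 0 to 31 for proximal minus distal in WENR-plus and WENR-minus, 0 to 23 for medium in distal organoids and 0 to 1 for the difference of the medium effect. The cause was not tested.

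With a replicate block the counts were 302 for colon site, 61 for medium and 49 for medium in distal organoids. For proximal minus distal they were 113 in WENR-plus and 75 in WENR-minus, and Hes1 -8.7 kb was not called. Same-numbered libraries of different groups correlated at 0.0022 to 0.53 (mean 0.24) in their deviations from the group means, over 0.1 in 14 of 18 pairs. Differently numbered ones correlated at -0.44 to 0.36 (mean -0.12), over 0.1 in 6 of 36 pairs. Same-numbered libraries were thus more alike on average, and 6 of 12 libraries correlated best with their own number. The study reports that most variation in Cdx2 binding lay between mouse groups. Since the labels do not state a pairing, the numbers were not taken to pair the libraries in the main tests. If they do pair them, the linear fold at Hes1 -8.7 kb differs by 4.37 between proximal and distal (higher in proximal in 6 of 6 pairs, exact sign permutation p = 0.0312, the smallest that 6 pairs allow), and over the 3 numbers, averaged over the media, the exact p is 0.25, again the smallest possible.

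The Hes1 -8.7 kb differences of the main limma fit were near 0 with wide intervals, and their sign was not stable. On the centred log2 scale proximal minus distal was 0.0935 averaged over the media and 0.0823 in WENR-minus, with equal lists it was -0.0312 in WENR-plus, and on the linear fold 4.37 by colon site and -1.63 by medium. Leaving out each library in turn gave -0.38 to 0.21 for colon site, -0.28 to 0.31 for medium, -0.69 to 0.49 and -0.25 to 0.035 for proximal minus distal in WENR-plus and WENR-minus, -0.10 to 0.19 and -0.58 to 0.60 for medium in proximal and distal organoids, and -0.57 to 0.62 for the difference of the medium effect. The lists hold no reads per region, so no limit is given for a missing peak.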
